A study of Heterocephalus glaber and Mus musculus with 9 samples.

Results

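The comparison described here set the spleens of naked mole-rats (NM-R, Heterocephalus glaber) with enlarged spleens (lsNM-R) against the spleens of mice. Its members were chosen by species and spleen size alone: lsNM-R 1, 4 and 5 and mouse 1, 2 and 3, which makes 6 of the 9 spleens sequenced, with the 3 small-spleen animals (ssNM-R) left out of the fit. The mice were wild-type C57Bl/6N males of 2 months. The lsNM-Rs were aged 24, 29 and 23 months, lsNM-R 4 being female and the others male. All animals were described as healthy and untreated, the NM-Rs being kept in a warmer room than the mice, and each library came from the RNA of a single frozen spleen. Species, age, housing and the genome used for read counting change together between the groups and cannot be told apart. The same holds for the sex of lsNM-R 4 and that animal.

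The spleen filters the blood. Its red pulp is a mesh of sinuses and macrophages that removes aged red cells and recycles their iron, and its white pulp is made of B-cell follicles and T-cell zones laid out by chemokines from stromal cells. In adult mice the red pulp also keeps a reserve of red cell, granulocyte and platelet production, whereas in many other mammals this ends around birth. Bulk spleen RNA adds up all of these cells, so fewer cells of a type and less RNA per cell cannot be told apart in any value given here.

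Levels are read counts per gene divided by one size factor per library (normalized counts), which can be set side by side for the same gene but not between genes, and which also depend on the gene model of each species. Spleen values are always given in the order mouse 1, 2, 3 and lsNM-R 1, 4, 5. Differences are lsNM-R minus mouse on the scale of log2(normalized count + 1), with the standard error (SE) of a limma model and a p adjusted over all 12946 genes of the table, and a gene was called at an adjusted p under 0.05. Between 10441982 and 11180912 reads were recovered per mouse and between 8327759 and 18387599 per lsNM-R. Of the 12946 genes, 9821 (75.9%) were called, 4952 higher (38.3%) and 4869 lower (37.6%) in lsNM-R. At least 4-fold differences were found for 1857 genes that were higher (14.3%) and 1765 that were lower (13.6%). All 3 lsNM-Rs lay above all 3 mice for 5126 genes (39.6%) and below them for 5055 genes (39%). Since most genes differed, the count of called members in each list below is to be read against these percentages. The median difference over all genes was 0.007. With each spleen scaled to the same upper quartile it was 0.11, so small differences are to be read against that shift. Mouse 1 stood apart from the other mice for genes of red cells and dividing cells, and the lists of these genes are also described without it.

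**Figure D1:**
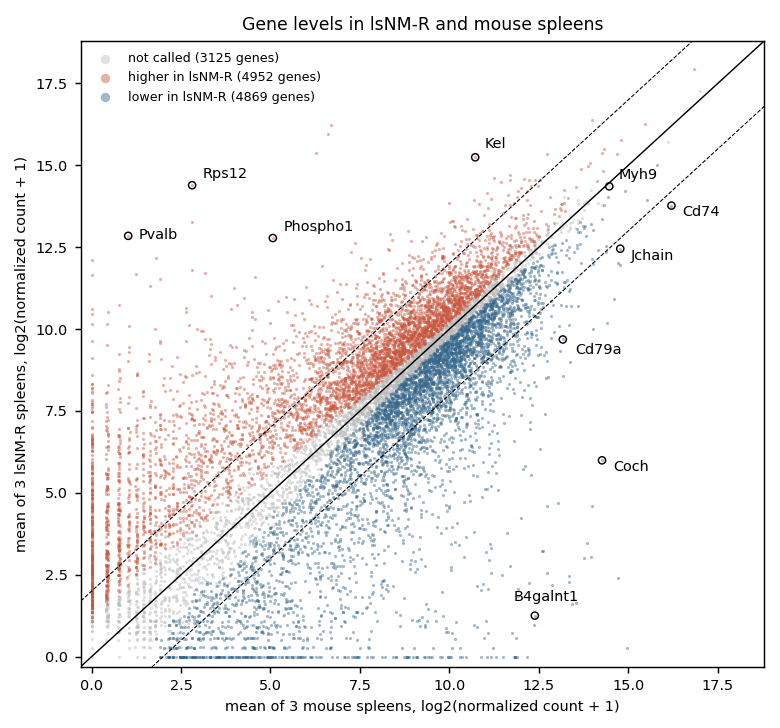
Mean level of each of the 12946 genes in the 3 mouse spleens (horizontal axis) and the 3 lsNM-R spleens (vertical axis), both as log2(normalized count + 1), with genes called higher in lsNM-R in red, genes called lower in blue and all others in grey. The solid line marks equal levels and the dashed lines a 4-fold difference. Kel and Phospho1 lie far above the line, Coch and B4galnt1 far below it, and Myh9 on it.

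The table joins each NM-R gene to a mouse gene by name, and some genes that every cell uses are near 0 in mice. Rps12, a ribosomal protein needed by every cell, was at 3.01, 9.78 and 5.24 in mice and at 22942, 21523 and 19939.7 in lsNM-Rs. The mitochondrially encoded Cox2, a subunit of cytochrome oxidase, was at 96.3, 88.0 and 107 in mice and at 44619, 66891 and 79758 in lsNM-Rs, while Cox1, a subunit of the same enzyme, was at 107574, 117461 and 122647 in mice. Mitochondrially encoded genes took 2.17% to 2.28% of the reads in mice and 5.88% to 7.46% in lsNM-Rs. A total of 948 genes were at the floor (3 reads or fewer in every spleen) in mice alone and 600 in lsNM-Rs alone. The part that gene matching plays in such differences was not tested.

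The genes furthest apart between the groups, among symbols whose mean was 1000 or more in the higher group and whose lowest spleen held 10 or more in the other, came from several compartments. Phospho1, a phosphatase acting on phosphocholine (mm9 chromosome 11, 95685813 to 95693454), was at 23.1, 28.3 and 46.1 in mice and at 7555, 7382 and 6130.3 in lsNM-Rs. It was 216-fold higher by the means (difference 7.77, SE 0.24, adjusted p = 1.54e-07). Pla2g4c, a phospholipase A2, followed with 28.1, 80.4 and 116 against 7239.9, 8609.8 and 9175 (difference 6.99, SE 0.45, adjusted p = 4.20e-06). The groups were far apart in both cases, as follows from the choice of genes, and mouse 1 was the lowest spleen for both. The terminal complement component C7 was at 30.1, 18.5 and 19.9 in mice and at 2202, 2771 and 4174 in lsNM-Rs (difference 6.98, SE 0.27, adjusted p = 4.22e-07). Next came Tmem100, an endothelial membrane protein (6.73), the glutathione transferase Gstm2 (6.67), Gchfr, which inhibits the first step of tetrahydrobiopterin synthesis (6.33), the protease inhibitor Tfpi2 (6.12), the RNA-binding protein gene Rbm42 (5.89), the ubiquitin ligase gene Peli3 (5.73) and Adnp, which encodes a zinc finger protein of chromatin (5.29). Gchfr varied among the lsNM-Rs, with 2120.0, 2549 and 414, and stood at 7.16 without lsNM-R 5.

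At the other end, Coch, the secreted protein cochlin (mm9 chromosome 12, 52694361 to 52706760), was at 23165, 19884 and 15917 in mice and at 43.8, 18.3 and 126 in lsNM-Rs. It was 313-fold lower (difference -8.66, SE 0.58, adjusted p = 5.33e-06), and its difference was -8.01 without lsNM-R 4 and -9.37 without lsNM-R 5. Kbtbd11 was at 3022, 3194 and 3184 in mice and 12.7, 12.7 and 12.5 in lsNM-Rs (difference -7.84, SE 0.12, adjusted p = 8.95e-09), the spleens of each group lying very close together. Dnase1l3, a nuclease that digests DNA released from dying cells, was at 4752, 4538 and 5512 and 53.7, 47.2 and 37.6 (difference -6.72, SE 0.15, adjusted p = 4.23e-08). Most of the other 7 genes of this group act in lymphocytes. Gimap4, a GTPase of lymphocytes, differed by -6.30, the inhibitory receptor Btla by -6.26, Tnfrsf13b, the receptor TACI of B cells, by -5.92 and the T-cell and NK-cell chemokine Ccl5 by -6.10. Asb2, an adaptor of ubiquitin ligases (-6.37), the sulphotransferase Chst3 (-6.31) and Tmem176a (-5.93) completed the group. The 3 lsNM-Rs lay below the 3 mice for all 10 genes, which follows from their choice by the size of the difference. Over all genes this held for 39%.

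Some abundant genes were at the floor in one species. Pvalb, the calcium buffer parvalbumin, was at 1.00, 0 and 2.10 in mice and at 7144, 7468 and 7462 in lsNM-Rs, at least 2256-fold higher against a floor of 3 reads. The acid-sensing channel gene Asic4 (2.01, 1.09 and 1.05 against 3408, 3178 and 3280.2) and Ceacam20 (listed at 0 in each mouse and at 4208, 2485 and 2975 in lsNM-Rs) were likewise high in lsNM-Rs alone, as was the mitochondrially encoded Nd3. Hla-Dra, the alpha chain of an MHC class II molecule, is listed at 0 in every mouse and was at 6558, 2428 and 4385 in lsNM-Rs, lsNM-R 4 being the lowest. In the opposite direction B4galnt1, an enzyme of ganglioside synthesis, was at 5362, 5384 and 5300.0 in mice and at 2.82, 0.705 and 0.627 in lsNM-Rs, at least 1262-fold lower, and the other 4 genes of this kind carry an NM-R identifier alone. Differences of this kind show what is listed under a joined name and were not read further.

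A smaller number of genes were alike in both groups. The 95% interval of the difference lay within -0.5 and 0.5 for 1128 genes. Among the most abundant of these were Myh9, the heavy chain of non-muscle myosin (23629.8, 22906 and 21266 in mice and 19877, 21582 and 21445 in lsNM-Rs, difference -0.11), the adhesion molecule Vcam1 (16207, 14950.4 and 14202 against 14817, 12200.4 and 15868, difference -0.09) and polyubiquitin Ubb (0.08). The groups overlapped for all 3.

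Among lists with at least 5 genes in the table, the lists of B cells, cytotoxic lymphocytes and both MHC pathways had the lowest medians. Those of complement, the red cell membrane and dividing cells had the highest. The measured members of the MHC lists are mostly regulators and accessory genes, so these medians do not describe the antigen-presenting chains. Of 41 lists 4 are gene families taken by name, and the others are markers of cell types and members of pathways that name 630 genes, of which 447 are in the table.

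**Figure D2:**
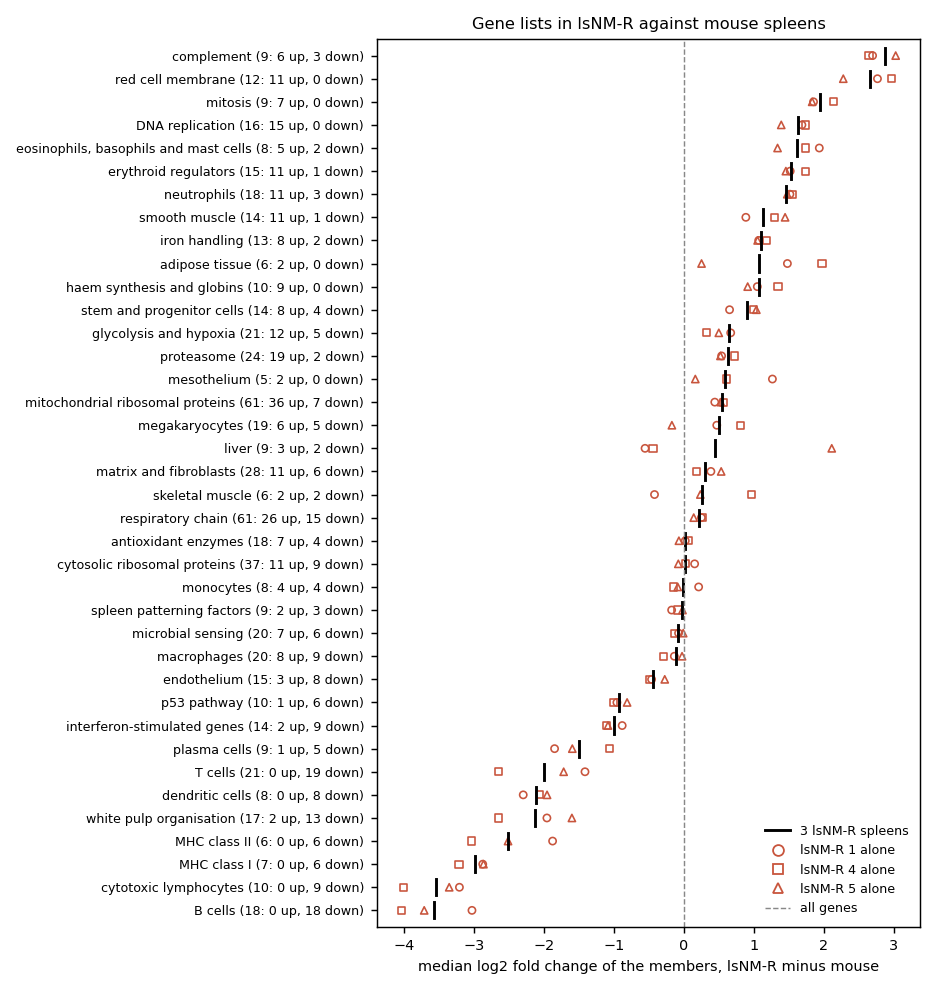
Median log2 fold change (lsNM-R minus mouse) of the members of each list with at least 5 genes in the table, on the horizontal axis, as black bars for the 3 lsNM-Rs together and as open symbols for each lsNM-R alone against the mean of the 3 mice. The dashed line is the median of all genes, and the numbers beside each name are the members in the table, those called higher and those called lower. B cells lie lowest, at -3.57, and complement highest, at 2.88.

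B-cell genes were lower throughout. Cd79a and Cd79b encode the signalling chains of the B-cell receptor. Cd79a was at 8441, 9254 and 9912 in mice and at 1116, 587 and 759 in lsNM-Rs, which was 11.2-fold lower (difference -3.53, SE 0.21, adjusted p = 3.25e-06). Cd79b was at 8108, 8817 and 9073 and 1069, 459.8 and 416 (difference -3.87, SE 0.32, adjusted p = 1.61e-05). In both cases lsNM-R 1 was the highest of the lsNM-Rs and still far below every mouse. Of the 20 B-cell genes listed, 18 were in the table, all 18 were lower (against 37.6% of all genes), 16 of them at least 4-fold, and their median difference was -3.57. The range ran from Cxcr5, the receptor that brings B cells into follicles (2307, 2609 and 2462 against 106, 38.1 and 38.3, difference -5.49, SE 0.36, adjusted p = 4.91e-06), to the kinase Btk, which myeloid cells also use (1967, 1958 and 1938 against 1456, 1486 and 1517, difference -0.39, SE 0.08, adjusted p = 0.00217). Pax5, the factor that fixes B-cell identity, differed by -5.29 and Ms4a1, which encodes CD20, by -3.49. Set against the mouse mean, the median over the list was -3.03 for lsNM-R 1, -4.04 for lsNM-R 4 and -3.71 for lsNM-R 5.

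Plasma cells, the antibody-secreting descendants of B cells, were less uniform. Jchain, the chain that joins IgA and IgM units, was at 30669.9, 27683 and 25608 in mice and at 5226, 8815 and 2770.4 in lsNM-Rs (difference -2.47, SE 0.37, adjusted p = 0.000411), and here lsNM-R 4, not lsNM-R 1, was the highest. Irf4, a factor of plasma cells and activated lymphocytes, was 9.31-fold lower (difference -3.24, SE 0.17, adjusted p = 1.61e-06), and the chaperone Mzb1 7.15-fold lower (difference -2.89, SE 0.22, adjusted p = 1.09e-05). The secretory regulator Xbp1, which many secretory cells use, was at 3206, 2879 and 2744 and 2144, 2746 and 2885 and was not called (difference -0.19, SE 0.13, adjusted p = 0.218), nor was Prdm1, the factor that ends the B-cell programme (difference -0.25, SE 0.22, adjusted p = 0.324). Fkbp11, a folding helper of the endoplasmic reticulum, was higher (57.2, 54.3 and 47.2 against 220.3, 247 and 233, difference 2.12, SE 0.16, adjusted p = 1.01e-05). Among its 9 members 5 were lower and 1 was higher, with a median of -1.50. Of the 2 genes of lymphocyte precursors in the table, the recombinase gene Rag1 was lower (23.1, 16.3 and 25.2 against 11.3, 5.64 and 1.88, difference -1.84, SE 0.53, adjusted p = 0.0128), while Dntt, at 29.1, 29.3 and 22.0 and 45.2, 14.1 and 17.6, was not called.

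T-cell genes were lower as well, except for parts of the receptor complex. Lck, the kinase that starts T-cell receptor signalling, was at 2621, 2686 and 2836 in mice and at 1052, 375 and 623 in lsNM-Rs, 3.97-fold lower (difference -2.11, SE 0.32, adjusted p = 0.000462). Cd3e, a chain of the receptor complex itself, was at 907, 925 and 1069 and 969, 478 and 795, so that lsNM-R 1 fell inside the mouse range, and was not called (difference -0.43, SE 0.24, adjusted p = 0.137). Cd3g behaved alike (789.7, 869 and 975 against 945, 433 and 674, difference -0.43, SE 0.26, adjusted p = 0.164). Without lsNM-R 1 both were called lower, at -0.64 and -0.69. Of the 21 T-cell genes 19 were lower, and the median was -2.0. The costimulatory receptor Cd28 was the lowest (952, 912 and 949 against 50.8, 21.2 and 27.0, difference -4.88, SE 0.29, adjusted p = 3.06e-06). Cd4, which macrophages of some species also carry, was 1.39-fold lower (difference -0.48, SE 0.12, adjusted p = 0.00639), and Foxp3, the factor of regulatory T cells, 4.55-fold lower (difference -2.19, SE 0.20, adjusted p = 2.46e-05). Here too the animals differed, with list medians of -1.41 for lsNM-R 1, -2.65 for lsNM-R 4 and -1.72 for lsNM-R 5.

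Cytotoxic lymphocyte genes, those of NK cells and killer T cells, were lower in 9 of 10 cases with a median of -3.54, or -2.98 with the 1 gene at the floor set to its bound. Perforin (Prf1) was at 367, 403 and 359.7 in mice and at 106, 56.4 and 129 in lsNM-Rs (difference -2.02, SE 0.29, adjusted p = 0.000321), and the granule protein Nkg7 at 519.8, 589 and 599 and 65.0, 42.3 and 73.4 (difference -3.25, SE 0.22, adjusted p = 4.93e-06). For both genes the groups were well separated. Ifng is listed at 0 in each lsNM-R and was at 19.1, 22.8 and 14.7 in mice, at least 4.45-fold lower. The exception was the NK-cell receptor Cd244, at 604, 517 and 553 and 477, 766 and 1391, which was not called (difference 0.52, SE 0.34, adjusted p = 0.191) but was called higher without lsNM-R 1, at 0.89.

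Dendritic cells take up antigen and show it to T cells on MHC class II. All 8 of their genes in the table were lower, with a median of -2.11. Itgax, which encodes CD11c, was at 2933, 2409.8 and 2548 in mice and at 137, 76.2 and 69.6 in lsNM-Rs (difference -4.85, SE 0.24, adjusted p = 1.37e-06), and the growth factor receptor Flt3, which progenitors also carry, at 1239, 903 and 928 and 407, 523 and 780.1 (difference -0.88, SE 0.24, adjusted p = 0.00996). The lowest member was Xcr1, a chemokine receptor of cross-presenting dendritic cells (656, 440.2 and 656 against 36.7, 14.1 and 12.5, difference -4.86, SE 0.39, adjusted p = 1.40e-05). The 6 genes of the MHC class II pathway in the table were all lower, with a median of -2.52. Cd74, the invariant chain, was at 69868, 75119.6 and 81211 in mice and at 18984, 8178 and 14706 in lsNM-Rs (difference -2.51, SE 0.30, adjusted p = 0.000111), and Ciita, the master activator of class II genes, at 5058, 4350.1 and 4269 and 1338, 618 and 601 (difference -2.52, SE 0.29, adjusted p = 9.51e-05). Here Hla-Dob, a class II chain of B cells, was the lowest (difference -4.26, SE 0.22, adjusted p = 1.44e-06) and the protease Ctss the highest (difference -0.66, SE 0.14, adjusted p = 0.00251). Class II chains whose names match between the species are few, and the listed chains H2-Aa, H2-Ab1 and H2-Eb1 were not in the table. Hla-Dra, described above as high in lsNM-Rs alone, is not in the list. The MHC class I list holds no heavy chain, and its members B2m, Tap2, Psmb9, Canx and Calr were not in the table. Of 7 genes of the MHC class I pathway 6 were lower, with a median of -2.98. Its activator Nlrc5 was at 3546, 2988 and 3276 and 249, 114 and 122 (difference -4.42, SE 0.28, adjusted p = 3.73e-06), the peptide transporter Tap1 at 4479, 4347 and 4954 and 1034, 744 and 1049.7 (difference -2.30, SE 0.15, adjusted p = 4.04e-06), and the general chaperone Pdia3, which was not called, at 5154, 5281 and 5521 and 4705, 5148 and 5746.

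Signals that lay out the white pulp were mostly lower. Of 17 genes 13 were lower and 2 higher, with a median of -2.13. Cxcl13, the chemokine of B-cell follicles, was at 2199, 2138 and 2128 in mice and at 145, 128 and 154 in lsNM-Rs (difference -3.91, SE 0.11, adjusted p = 9.98e-08), with close agreement inside each group. Its receptor Cxcr5 was lower too, as given above. Ccl19, a chemokine of the T-cell zone, was low in both groups, at 31.1, 28.3 and 22.0 and 1.41, 4.23 and 1.88 (difference -3.07, SE 0.38, adjusted p = 0.000147), and its receptor Ccr7 was at 1766, 1973 and 1852 and 479, 169 and 235 (difference -2.80, SE 0.33, adjusted p = 0.000116). Lta, a lymphotoxin that lymphocytes use to instruct the stroma, was the lowest member (215, 227 and 238 against 22.6, 4.23 and 10.7, difference -4.33, SE 0.49, adjusted p = 8.93e-05). Its stromal receptor Ltbr was the highest and was higher in lsNM-Rs (521, 511 and 500.2 against 867, 1160.0 and 1262, difference 1.08, SE 0.15, adjusted p = 0.000234). Il33 was also higher (0.83), but 1 rather than 2 members were called higher when mouse 2, lsNM-R 4 or lsNM-R 5 was left out.

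**Figure D3:**
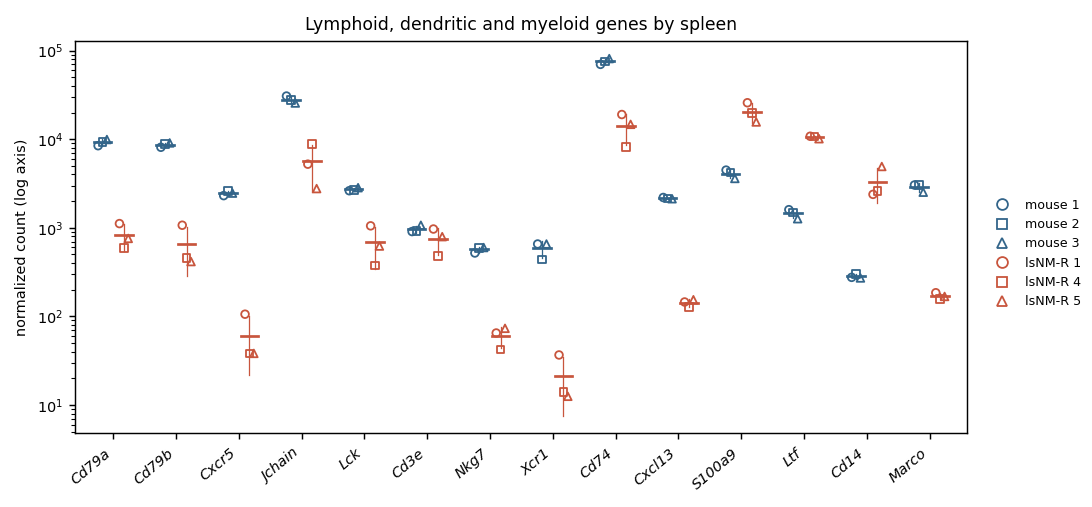
Normalized counts (log axis) of 14 lymphoid, dendritic and myeloid genes in each spleen, with mice in blue and lsNM-Rs in red, a symbol for each animal, the group mean as a horizontal line and the SD as a vertical line. Cd3e is the only gene shown whose groups overlap, while S100a9, Ltf and Cd14 are the 3 that are higher in lsNM-Rs.

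Myeloid genes did not move as a block. Macrophage genes split much as all genes did, with 8 of 20 higher and 9 lower (against 38.3% and 37.6% of all genes) and a median of -0.12. Adgre1, which encodes the F4/80 antigen of mouse macrophages, was at 3014, 2469 and 2429.8 in mice and at 120.1, 82.5 and 36.4 in lsNM-Rs (difference -5.18, SE 0.38, adjusted p = 8.20e-06). Marco, a scavenger receptor of marginal zone macrophages, was at 3039, 3054 and 2521 and 185, 157 and 168 (difference -4.07, SE 0.12, adjusted p = 1.28e-07). Siglec1, which marks the metallophilic macrophages of the marginal zone, went the other way, with 2984, 1959 and 1569 in mice and 17808, 12439 and 9244 in lsNM-Rs (difference 2.60, SE 0.29, adjusted p = 8.29e-05). Csf1r, the receptor macrophages need to survive, was lower (-0.96) and the complement gene C1qa higher (1.69). Of the genes for iron recycling by red pulp macrophages, the exporter ferroportin (Slc40a1) was higher (13965, 11539.5 and 10016 against 20473, 18937 and 22204, difference 0.80, SE 0.16, adjusted p = 0.00179), whereas the haem-degrading enzyme Hmox1, at 12021, 9943 and 10874 and 9723, 8979 and 10895, was not called (difference -0.15, SE 0.13, adjusted p = 0.309). The haemoglobin scavenger receptor Cd163 spread widely among the lsNM-Rs, from 119 in lsNM-R 5 to 977 in lsNM-R 1, against 1888, 1688 and 1018 in mice (difference -2.06, SE 0.67, adjusted p = 0.0225).

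Monocyte genes split too, 4 of 8 being higher and 4 lower (against 38.3% and 37.6% of all genes). The lipopolysaccharide co-receptor Cd14 was at 276, 302 and 272 in mice and at 2384, 2591 and 4918 in lsNM-Rs, where lsNM-R 5 was the highest (difference 3.46, SE 0.25, adjusted p = 8.21e-06). F13a1, the transglutaminase factor XIII, was 20.1-fold higher (389, 338 and 271 against 7679, 6705 and 5679, difference 4.33, SE 0.16, adjusted p = 3.91e-07), and the chemokine receptor Cx3cr1 was 6.98-fold lower (difference -2.83, SE 0.24, adjusted p = 1.59e-05). The median of the list was -0.01.

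Neutrophil genes were higher more often than lower, with 11 of 18 higher, 3 lower and a median of 1.46. S100a9, a chain of the calcium-binding protein calprotectin, was at 4477, 4211 and 3604 in mice and at 25782, 19885 and 15639 in lsNM-Rs (difference 2.29, SE 0.19, adjusted p = 1.56e-05). Mpo, the peroxidase of primary granules, was at 1021, 962 and 797 and 3853, 2888 and 3962 (difference 1.94, SE 0.15, adjusted p = 1.18e-05), and Ltf, the iron-binding protein of secondary granules, at 1601, 1487 and 1266 and 10794, 10721 and 10121 (difference 2.87, SE 0.11, adjusted p = 4.26e-07). All 3 lsNM-Rs lay above all mice for these genes. Padi4, an enzyme of extracellular trap formation, was the highest member (119, 109.8 and 87.0 against 2856, 3538 and 2358, difference 4.77, SE 0.18, adjusted p = 3.93e-07). The lowest was Ncf1, a subunit of the oxidase that makes superoxide (3491, 3409 and 3329.6 against 821, 613 and 628, difference -2.32, SE 0.13, adjusted p = 1.88e-06), while the membrane subunit of the same oxidase, Cybb, was at 5264, 4551 and 4275 and 4128, 4074 and 4295 and was not called (difference -0.17, SE 0.11, adjusted p = 0.182).

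Among genes of eosinophils, basophils and mast cells, 5 of 8 were higher and 2 lower (median 1.62). The eosinophil chemokine receptor Ccr3 was 54.3-fold lower (1581, 1382 and 1142 against 16.9, 36.7 and 21.9, difference -5.77, SE 0.28, adjusted p = 1.10e-06), although Epx, the peroxidase of eosinophil granules, was at 212, 177 and 44.0 in mice and 539.5, 485 and 102 in lsNM-Rs and was not called (difference 1.33, SE 0.76, adjusted p = 0.147). Epx was widely spread in both groups, and without lsNM-R 5 it was called higher, at 2.10. The mast cell proteases Cma1 (29.1, 22.8 and 22.0 against 114, 159 and 129, difference 2.40, SE 0.22, adjusted p = 2.99e-05) and Cpa3 (32.1, 20.7 and 18.9 against 97.5, 125 and 128, difference 2.27, SE 0.26, adjusted p = 0.000101) were higher at low levels.

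Genes of red cell formation were higher in lsNM-Rs, from the regulators to the membrane. The regulators are factors and receptors that commit progenitors to the erythroid line and carry them through it. Gata1 among them binds GATA sequences in DNA. The windows upstream of the 3 regulators with the largest difference, Epor, Tal1 and Nfe2, are printed to show where such letters stand. Each is the 250 bases before the annotated start in mm9 on the strand of the gene, with GATAA or its reverse complement TTATC in capitals.
Epor (mm9 chr9:21768021-21768270, minus strand): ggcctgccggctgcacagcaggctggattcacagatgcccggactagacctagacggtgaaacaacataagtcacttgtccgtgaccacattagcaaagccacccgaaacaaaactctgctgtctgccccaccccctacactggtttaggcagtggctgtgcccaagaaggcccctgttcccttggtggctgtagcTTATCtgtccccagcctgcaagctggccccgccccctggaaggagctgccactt
Tal1 (mm9 chr4:114728781-114729030, plus strand): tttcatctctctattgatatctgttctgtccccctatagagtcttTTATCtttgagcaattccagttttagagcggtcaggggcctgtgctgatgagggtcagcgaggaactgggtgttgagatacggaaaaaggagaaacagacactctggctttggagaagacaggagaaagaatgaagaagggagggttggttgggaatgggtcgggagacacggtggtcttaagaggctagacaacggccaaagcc
Nfe2 (mm9 chr15:103088835-103089084, minus strand): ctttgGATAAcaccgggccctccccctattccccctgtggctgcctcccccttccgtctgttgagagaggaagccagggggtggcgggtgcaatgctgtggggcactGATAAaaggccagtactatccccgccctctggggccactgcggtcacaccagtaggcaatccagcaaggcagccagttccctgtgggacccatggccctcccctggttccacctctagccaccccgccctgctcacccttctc
Either form of the motif stood in the window of 14 of the 32 genes of red cell regulation, membrane and haem that had a single protein-coding mm9 gene (43.8%), against 1645 of 10292 windows of all genes of the table (16%). By list these were 7 of 15 regulators, 3 of 7 membrane genes and 4 of 10 haem genes. The match is a description of mouse letters only, and no NM-R sequence was read.

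Gata1, the master factor of the erythroid line, was at 304, 789 and 1053 in mice and at 4061, 5795 and 4114 in lsNM-Rs (difference 2.86, SE 0.42, adjusted p = 0.000367). Epor, the receptor for erythropoietin, was at 367, 687 and 879.8 and 7054, 7977 and 6663, 11.2-fold higher (difference 3.57, SE 0.29, adjusted p = 1.32e-05). Tal1 was at 710.4, 1991 and 2243 and 13764, 19659 and 13434 (difference 3.39, SE 0.41, adjusted p = 0.000128) and Nfe2 at 529, 1244 and 1539 and 9238, 12919 and 8236 (difference 3.31, SE 0.38, adjusted p = 9.08e-05). For these 4 genes every lsNM-R lay above every mouse, and mouse 1 was the lowest animal. The transferrin receptor Tfrc, which loads erythroblasts with iron, was at 2089, 5252 and 7013 and 22485, 31732 and 17679 (difference 2.45, SE 0.43, adjusted p = 0.00106). Klf1, a factor that switches on the adult globin programme, had the widest spread among the mice of all genes with a mean of at least 100, at 282, 1201 and 1616. With 1921, 2728 and 1696 in lsNM-Rs the groups did not overlap, but Klf1 was not called (difference 1.34, SE 0.58, adjusted p = 0.0672). It was called higher without mouse 3, at 1.83, and its difference was 0.57 without mouse 1. Of 15 regulators 11 were higher, 1 was lower, and the median was 1.53. The lower one was E2f2, a cell cycle factor of late erythroblasts (1622, 3094 and 3786 against 1537, 1419 and 1186, difference -0.96, SE 0.29, adjusted p = 0.0162), whose call was lost without mouse 2, mouse 3 or lsNM-R 5 (adjusted p between 0.0549 and 0.0738).

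The red cell membrane list had 11 of 12 genes higher, with a median of 2.67 that was 2.01 without mouse 1. Kel, the Kell blood group protease (mm9 chromosome 6, 41636329 to 41654338), was the furthest apart, at 562, 1837 and 2656 in mice and 38515, 47362 and 30422 in lsNM-Rs, 23.0-fold higher (difference 4.77, SE 0.51, adjusted p = 6.67e-05, and 4.11 without mouse 1). Slc4a1, the band 3 anion exchanger, was at 7373, 22820.2 and 29247 and 44488, 46234 and 37489 (difference 1.32, SE 0.46, adjusted p = 0.0306). Its difference was 0.72 without mouse 1, and it was not called when any of the lsNM-Rs was left out (adjusted p between 0.0729 and 0.0951). The skeleton protein ankyrin (Ank1, 1290.4, 3965 and 4682 against 27437, 31997 and 21302, difference 3.20, SE 0.45, adjusted p = 0.000299) was higher with no overlap. Epb41, protein 4.1, which many cell types use, was at 6583, 9169 and 10764 and 7589, 9613 and 6730.4 and was not called (difference -0.13, SE 0.21, adjusted p = 0.571).

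Haem synthesis was higher at most steps. The list also named globin genes and Ahsp, none of which was in the table, so globin levels are not described. Of 10 genes 9 were higher, with a median of 1.07, or 0.82 without mouse 1, but the count was 5 without lsNM-R 1 or lsNM-R 4 and 6 without mouse 1. Alas2, the erythroid enzyme of the first step, was at 11191, 16079.8 and 19388 in mice and at 32829.7, 41692 and 28187 in lsNM-Rs (difference 1.16, SE 0.24, adjusted p = 0.00258). Fech, which inserts the iron, overlapped, at 3468, 5709 and 7716 and 9092, 9703 and 7431 (difference 0.70, SE 0.27, adjusted p = 0.0447). Its call and that of the oxidase Ppox, the lowest member (difference 0.59, SE 0.23, adjusted p = 0.0456), was lost when any of the mice 1 and 2 or of the lsNM-Rs was left out.

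**Figure D4:**
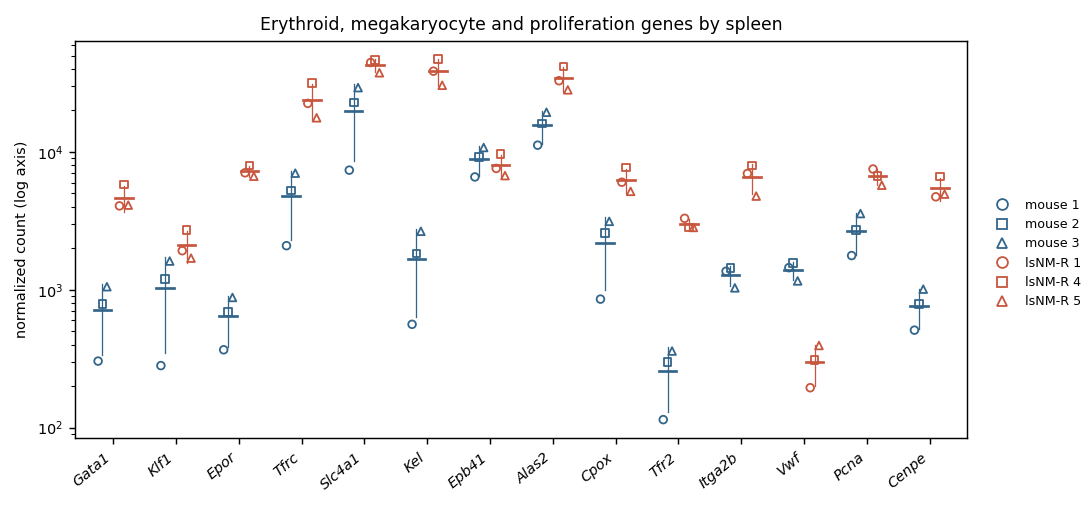
Normalized counts (log axis) of 14 genes of the erythroid and megakaryocyte lines, iron uptake and cell division in each spleen, with mice in blue and lsNM-Rs in red, a symbol for each animal, the group mean as a horizontal line and the SD as a vertical line. Mouse 1 is the lowest mouse for the erythroid genes Gata1, Klf1, Epor and Kel, and Epb41 is the only gene shown whose groups overlap.

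Iron genes outside the haem pathway were higher in 8 of 13 cases and lower in 2, with a median of 1.10. Tfr2, a transferrin receptor found on liver cells and erythroblasts, was at 114, 301 and 359.7 in mice and at 3299, 2835 and 2832 in lsNM-Rs (difference 3.68, SE 0.38, adjusted p = 5.39e-05), and the ferrireductase Steap3, which acts with transferrin receptors in erythroblasts, at 267, 518 and 603 and 4422, 4523 and 3770.0 (difference 3.27, SE 0.28, adjusted p = 1.79e-05). Ncoa4, which delivers ferritin for breakdown, was 4.21-fold higher (difference 2.01, SE 0.24, adjusted p = 0.000116). Bmp6, an endothelial signal of iron load, was lower (404, 311 and 265 against 25.4, 22.6 and 15.7, difference -3.89, SE 0.25, adjusted p = 4.28e-06).

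Megakaryocyte genes showed no common direction, with 6 of 19 higher, 5 lower and a median of 0.50. Itga2b, the integrin of platelets and their precursors, was at 1363, 1444 and 1033 in mice and at 6967, 7978 and 4780.2 in lsNM-Rs (difference 2.34, SE 0.21, adjusted p = 2.27e-05). The von Willebrand factor gene Vwf, which endothelium also expresses, was at 1447, 1569 and 1159.8 and 195, 310.3 and 394 (difference -2.26, SE 0.25, adjusted p = 7.73e-05), and the thrombin receptor subunit F2rl2 at 263, 352 and 209.7 and 4.24, 5.64 and 1.88 (difference -5.86, SE 0.36, adjusted p = 3.67e-06). The platelet tubulin Tubb1 was 3.51-fold higher (difference 1.73, SE 0.32, adjusted p = 0.00147). The count of higher members rose to 10 without lsNM-R 5, the lowest lsNM-R for Itga2b and Tubb1.

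Of 14 genes of stem and progenitor cells 8 were higher and 4 lower (median 0.90). Cd34, on progenitors and endothelium, was at 366, 368 and 325 in mice and at 1681, 1456 and 1264 in lsNM-Rs (difference 2.04, SE 0.13, adjusted p = 3.67e-06). Hoxa9, of the HOXA cluster that progenitors and stromal cells use, was the highest member, at 5.02, 9.78 and 2.10 and 259.9, 346 and 147 (difference 5.34, SE 0.50, adjusted p = 3.00e-05). Hoxa5 of the same cluster was at 44.2, 31.5 and 38.8 and 436, 357 and 349 (difference 3.29, SE 0.19, adjusted p = 2.47e-06). The other listed genes of the cluster, Hoxa7 and Hoxa10, are not described here. Procr, a marker of stem cells and of endothelium, was lower (-1.58), as was the myeloid and B-cell factor Spi1 (1848, 1691 and 1753 against 814, 708 and 727, difference -1.24, SE 0.09, adjusted p = 1.04e-05). Runx1 was at 905, 862 and 973 and 889.8, 791 and 870.4 and was not called.

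Genes of dividing cells were higher. Of 16 DNA replication genes 15 were higher, with a median of 1.63, or 1.40 without mouse 1. Pcna, the sliding clamp of the polymerase, was at 1771, 2712 and 3571 in mice and at 7518, 6712 and 5733 in lsNM-Rs (difference 1.36, SE 0.24, adjusted p = 0.00115), and Mcm5, a subunit of the replicative helicase, at 1449, 2216 and 2709.8 and 8854, 7708 and 5389 (difference 1.80, SE 0.26, adjusted p = 0.000348). The helicase cofactor Gins1 was the highest (86.3, 139 and 187 against 1078, 1068 and 904, difference 2.94, SE 0.26, adjusted p = 2.17e-05). Uhrf1, which maintains DNA methylation at the fork, overlapped, at 957, 1737 and 2175 and 2167, 2173 and 1864, and was not called (difference 0.43, SE 0.27, adjusted p = 0.184) except without mouse 3, at 0.68. For mitosis 7 of 9 genes were higher, with a median of 1.95, or 1.51 without mouse 1. The kinetochore motor Cenpe was at 509.7, 786 and 1011 and 4726, 6646 and 4941 (difference 2.86, SE 0.25, adjusted p = 2.01e-05) and topoisomerase Top2a at 2341, 3924 and 4925 and 8532, 10376 and 8471 (difference 1.35, SE 0.25, adjusted p = 0.00156). Without mouse 1 the counts of higher members were still 15 and 7, and for regulators and the membrane 11 and 11. Mouse 1 was the lowest spleen and mouse 3 the highest mouse for each of the genes of dividing cells named here.

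**Figure D5:**
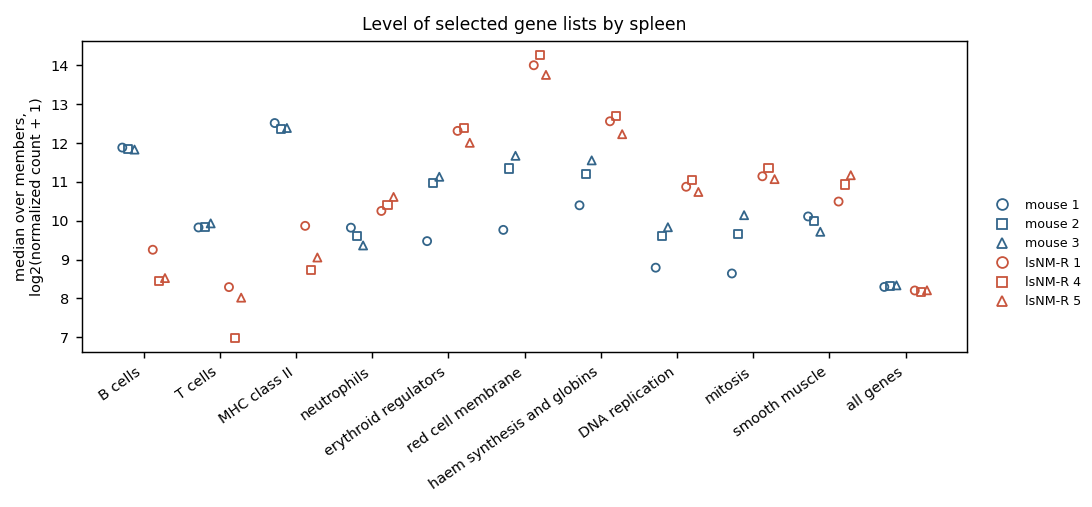
Median level of the members of 10 lists and of all genes in each spleen, as log2(normalized count + 1), with mice in blue and lsNM-Rs in red and a symbol for each animal. Mouse 1 is the lowest spleen for red cell, haem, replication and mitosis genes, lsNM-R 1 is the highest lsNM-R for the B-cell, T-cell and MHC class II lists, and the 6 spleens lie between 8.17 and 8.34 for all genes.

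Smooth muscle genes were higher in 11 of 14 cases and lower in 1, with a median of 1.13. Acta2, smooth muscle actin, was at 2471, 2383 and 1753 in mice and at 6881, 8677 and 12702 in lsNM-Rs (difference 2.07, SE 0.23, adjusted p = 8.69e-05), and Tagln at 2015, 2132 and 1604 and 6017, 7860.2 and 10679 (difference 2.06, SE 0.21, adjusted p = 5.02e-05). In both cases lsNM-R 5 was the highest. Desmin (Des), the intermediate filament of muscle, was lower (1596, 1552 and 1405 against 736, 635 and 446, difference -1.35, SE 0.18, adjusted p = 0.000213). Myh11, the smooth muscle myosin, lay at the threshold (difference 0.48, SE 0.19, adjusted p = 0.0495) with overlapping groups (1815, 1654 and 1273 against 1709, 2273 and 2682), and lost its call without mouse 2, mouse 3, lsNM-R 4 or lsNM-R 5 (adjusted p between 0.0858 and 0.173).

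Matrix genes went both ways, with 11 of 28 higher and 6 lower (against 38.3% and 37.6% of all genes) and a median of 0.30. Postn, the matrix protein periostin, was at 322, 336 and 317 in mice and at 3672, 7108 and 12290.0 in lsNM-Rs (difference 4.39, SE 0.37, adjusted p = 1.76e-05). The fibrillar collagen gene Col3a1 was at 2601, 2499 and 2552 and 3593, 5626 and 7921 (difference 1.09, SE 0.25, adjusted p = 0.00461), whereas Col1a1, at 1971, 1809.8 and 1956 and 941, 1515 and 2120.1, was not called (difference -0.40, SE 0.26, adjusted p = 0.189), except without lsNM-R 5, at -0.68. In each of these genes lsNM-R 5 was the highest lsNM-R and lsNM-R 1 the lowest. The basement membrane collagen Col4a2 was higher (3491, 2901 and 2662 against 12366, 11608 and 17971, difference 2.19, SE 0.19, adjusted p = 1.81e-05) and Col14a1, a collagen that binds to fibrils, lower (4647, 3612 and 2843 against 414, 611 and 734, difference -2.67, SE 0.24, adjusted p = 2.57e-05).

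Endothelial genes were lower in 8 of 15 cases and higher in 3, with a median of -0.44. Pecam1, which also marks platelets and leukocytes, was at 4287, 3728 and 3566 in mice and at 1119, 813 and 992 in lsNM-Rs (difference -1.99, SE 0.14, adjusted p = 5.92e-06), and Stab2, the scavenger receptor of sinus endothelium, at 5360.3, 6343 and 5033 and 1370.0, 1247 and 1354 (difference -2.07, SE 0.11, adjusted p = 1.80e-06). The junction gene Cdh5, found in all endothelium, was at 1616, 1265 and 1136 and 1393, 1234 and 1258 and was not called (difference -0.03, SE 0.14, adjusted p = 0.831). Emcn (23.1, 27.2 and 28.3 against 138, 233 and 322, difference 3.02, SE 0.31, adjusted p = 5.20e-05) and the hyaluronan receptor Lyve1 (6.02, 14.1 and 15.7 against 60.7, 87.4 and 135, difference 2.90, SE 0.43, adjusted p = 0.000387) were higher from low mouse levels. Of the factors that pattern the spleen in the embryo, Tlx1, needed for the organ to form, was at 926, 665 and 647 and 702, 747 and 973 and was not called (difference 0.12, SE 0.18, adjusted p = 0.562). Nkx2-5 was higher (93.3, 75.0 and 76.6 against 129, 245 and 374, difference 1.47, SE 0.36, adjusted p = 0.00582) and Nkx3-2 lower (118, 101 and 98.6 against 16.9, 37.4 and 31.4, difference -1.92, SE 0.31, adjusted p = 0.000626). In that list 2 of 9 genes were higher and 3 lower, and 1 was higher without mouse 3, lsNM-R 1 or lsNM-R 4.

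Innate defence genes differed by pathway. Complement, the cascade of serum proteins that coats and pierces microbes, had the highest median of the lists with at least 5 members, 2.88, with 6 of 9 genes higher and 3 lower. The central component C3 was lower (22623, 20294 and 18306 against 15288, 13246 and 13958, difference -0.52, SE 0.14, adjusted p = 0.00806), C2, which builds the enzyme that cleaves it, was 13.4-fold higher (559, 477 and 425 against 5226, 5749 and 8609, difference 3.72, SE 0.20, adjusted p = 1.64e-06), and the receptor for the C5a fragment, C5ar1, was 7.42-fold higher (difference 2.88, SE 0.16, adjusted p = 2.01e-06). Of a pair of neighbouring parts of the pore, C7 was higher, as given above, and C6 lower (1194, 1032 and 955 against 7.06, 4.23 and 5.64, difference -7.34, SE 0.22, adjusted p = 1.41e-07). Cfd, a protease that fat cells secrete, was at 1.00, 4.35 and 78.7 in mice and 970.3, 579 and 753 in lsNM-Rs, so that mouse 3 stood apart from the other mice (difference 6.31, SE 1.17, adjusted p = 0.00142).

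Interferon-stimulated genes were lower in 9 of 14 cases and higher in 2, with a median of -1.0. Isg15, a ubiquitin-like modifier, was at 305, 716 and 1048 in mice and at 1911, 831 and 1115 in lsNM-Rs and was not called (difference 0.98, SE 0.46, adjusted p = 0.0854), except without mouse 3, at 1.37. Both members that were higher act in nucleotide metabolism. Cmpk2 was at 458, 659 and 862 and 2706, 2895 and 2463 (difference 2.07, SE 0.21, adjusted p = 5.06e-05), and Rsad2, which encodes viperin, at 1826, 3401 and 4859 and 4889.7, 11446 and 6249 (difference 1.18, SE 0.41, adjusted p = 0.0284). Only 1 of the members was called higher without mouse 1, mouse 2, lsNM-R 4 or lsNM-R 5. Xaf1 is listed at 0 in each lsNM-R and was at 638, 1071 and 1256 in mice, at least 233-fold lower.

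Among 20 genes of microbial sensing, 7 were higher and 6 lower, with a median of -0.08. Tlr4, the receptor for lipopolysaccharide, was at 556, 516 and 426 in mice and at 470.3, 372 and 459.6 in lsNM-Rs and was not called (difference -0.20, SE 0.15, adjusted p = 0.24), nor was the adaptor Myd88 (difference -0.28, SE 0.12, adjusted p = 0.0607). Tlr3, which senses double-stranded RNA, was the lowest (465, 426 and 481 against 55.1, 46.5 and 57.1, difference -3.09, SE 0.15, adjusted p = 1.18e-06), and Tlr7, which senses single-stranded RNA, was 3.96-fold lower (difference -2.0, SE 0.17, adjusted p = 1.68e-05). Clec4e, a lectin receptor of myeloid cells for fungal and mycobacterial lipids, was the highest (52.2, 55.4 and 55.6 against 1041, 671 and 1156, difference 4.07, SE 0.21, adjusted p = 1.47e-06).

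Of 10 genes in the p53 pathway 6 were lower and 1 higher (median -0.93). The cell cycle inhibitor Cdkn1a was at 172, 171 and 175 in mice and at 175, 154 and 216 in lsNM-Rs and was not called (difference 0.06, SE 0.16, adjusted p = 0.733). Bax, which opens mitochondria in dying cells, was lower (782, 854 and 899.8 against 363, 330.0 and 346, difference -1.28, SE 0.10, adjusted p = 1.32e-05) and Gadd45a was higher (226, 416 and 642 against 1226, 1097 and 868, difference 1.42, SE 0.34, adjusted p = 0.0057), mouse 1 again being the lowest. The p53-regulated Eda2r was at 32.1, 19.6 and 29.4 in mice and at the floor in lsNM-Rs (2.82, 1.41 and 1.25), at least 6.38-fold lower.

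Glycolysis and hypoxia genes were higher in 12 of 21 cases and lower in 5, with a median of 0.64. The glucose transporter Slc2a1, which red cells of some mammals also carry, was at 974, 900.0 and 857 in mice and at 4908, 5498 and 3919 in lsNM-Rs (difference 2.38, SE 0.14, adjusted p = 2.35e-06). Hif1a, the oxygen-regulated factor itself, was at 2248, 2009.8 and 1973 and 2121, 1931 and 2220.5 (difference 0.01, SE 0.10, adjusted p = 0.931). The kinase Pdk1, which holds pyruvate back from mitochondria, was lower (1611, 1529 and 1642 against 675, 569 and 645, difference -1.34, SE 0.10, adjusted p = 8.38e-06). Antioxidant enzymes had 7 of 18 genes higher and 4 lower (against 38.3% and 37.6% of all genes), or 7 lower without mouse 1, with a median of 0.02. Catalase (Cat) was at 2867, 3308 and 3682 and 25273, 26642 and 20201 (difference 2.87, SE 0.15, adjusted p = 1.58e-06) and the red cell peroxiredoxin Prdx2 at 2744, 5683 and 7687 and 20957, 27660.0 and 23432 (difference 2.27, SE 0.34, adjusted p = 0.000453), while the secreted glutathione peroxidase Gpx3 was 10.1-fold lower (2816, 3800.1 and 3124 against 323, 338 and 301, difference -3.33, SE 0.13, adjusted p = 4.01e-07).

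Families of basic cell functions are given for comparison, by their medians and by the range of their members. Cytosolic ribosomal proteins had a median of 0.01, with 11 of 37 higher and 9 lower, or 14 lower without lsNM-R 1. Mitochondrial ribosomal proteins had a median of 0.55, with 36 of 61 higher and 7 lower, and subunits of the proteasome one of 0.63, with 19 of 24 higher and 2 lower. The former had 3 lower members without mouse 2 or mouse 3 and 4 without lsNM-R 1, and the lower members of the latter lost their calls without mouse 2, mouse 3 or lsNM-R 5. Nuclear-encoded subunits of the respiratory chain had a median of 0.22, with 26 of 61 higher and 15 lower. Single members lay far from these medians. Differences ran from -0.98 to 11.70 for cytosolic and from -1.19 to 3.77 for mitochondrial ribosomal proteins. They ran from -0.45 to 1.64 for the proteasome and from -6.35 to 4.61 for the respiratory chain.

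Markers of neighbouring tissues were counted because a spleen can be taken with some of them. Over all genes 38.3% were called higher and 37.6% lower. The shares of higher genes for mesothelium, fat, liver and skeletal muscle were near that of all genes. Of 3 pancreatic genes all were called higher in lsNM-Rs, where their summed level was 103 to 172 against 0 to 3.15 in mice. The carboxypeptidase Cpa1 was at 126, 108 and 58.3 in lsNM-Rs and at 0, 0 and 3.15 in mice. Cpb1 was at the floor in mice and close to it in lsNM-Rs, with 1.41, 2.82 and 2.51. It lost its call without mouse 2, mouse 3, lsNM-R 4 or lsNM-R 5 (adjusted p between 0.0531 and 0.0793). The mesothelial Msln, from the covering of the organ, was at 92.3, 133 and 66.1 and 850.3, 723 and 485 (difference 2.83, SE 0.29, adjusted p = 5.33e-05), 2 of the 5 genes of its list being higher, or 1 with mouse 1, mouse 3, lsNM-R 1 or lsNM-R 4 left out. For fat, 2 of 6 genes were higher and Adipoq was at 2.01, 2.17 and 14.7 and 107, 59.9 and 47.7 (difference 3.69, SE 0.66, adjusted p = 0.00118), mouse 3 being the highest mouse here as for Cfd. Of 9 liver genes 3 were higher and 2 lower, and albumin (Alb) was at 95.3, 223 and 116 and 91.8, 99.4 and 694, where lsNM-R 5 stood apart, and was not called. Skeletal muscle genes were higher in 2 of 6 cases and lower in 2, with 1 higher when any of the spleens other than mouse 3 was left out. The part of these tissues in the results was not tested. The lists are low in both groups, no list sum passing 1339.

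Spleens of a group also differed among themselves. Over the 7790 genes with a mean of at least 100 in both groups, the median SD of the log2 values was 0.165 among lsNM-Rs and 0.111 among mice, and it was larger among lsNM-Rs for 65.3% of the genes. Mouse 1 was the mouse furthest from its group mean for 50.0% of these genes, mouse 2 for 15.9% and mouse 3 for 34.2%, whereas the shares of the lsNM-Rs lay between 31.1% and 35.5%. The widest spread among lsNM-Rs was found for Rgs1, a regulator of chemokine signalling, at 49.4, 16.2 and 462, with 441, 479 and 447 in mice. It was called lower (difference -2.63, SE 1.02, adjusted p = 0.0443) and differed by -3.95 without lsNM-R 5, and the call was lost when any other spleen was left out (adjusted p between 0.0942 and 0.144). Several of the most variable genes are early response genes that cells switch on within minutes of a stimulus. Egr1 was at 377, 148 and 1318, Nr4a1 at 203, 151 and 1581, Ccn1 at 374, 491 and 2830.0 and Snai1 at 105, 90.3 and 644 in lsNM-Rs, with lsNM-R 5 highest for each. In mice, Egr1 was at 708, 461 and 465 and Nr4a1 at 829.8, 674 and 785. Neither was called, but without lsNM-R 5 both were called lower, at -1.17 and -2.11. Among mice, the widest spread with a symbol belonged to Klf1, Epx and Tspan8, a tetraspanin at 68.2, 234 and 349 in mice and 4469, 5042 and 4109 in lsNM-Rs (difference 4.66, SE 0.52, adjusted p = 7.91e-05, and 3.98 without mouse 1).

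Whether these differences belong to enlarged spleens was not tested, because the ssNM-R spleens were not set against mice here. The ssNM-R spleens were compared with the lsNM-R spleens alone. In a limma fit over all 9 spleens no gene of 12946 differed between lsNM-R and ssNM-R at an adjusted p under 0.05. The smallest adjusted p was 0.429. Before adjustment 1138 genes had a p under 0.05, and DESeq2, run on whole reads, called 54 genes, 38 of them higher in lsNM-R.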

How the data were processed

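Spleen RNA of 3 mice and 3 lsNM-Rs was compared, 1 library per animal, each animal being a biological replicate. According to the methods, the authors aligned paired reads with STAR 2.5.3a, mouse reads to mm9 and NM-R reads to the NM-R genome, counted reads per gene with HTSeq 0.10.0 (strand setting not given in the sources used here), named NM-R genes after mouse homologues, and scaled the merged counts with DESeq2 size factors over all 9 spleens. The deposited signal values are therefore read counts divided by a size factor, not by gene length, so a gene model of different length or completeness in the 2 species changes its level. The labels name a HiSeq instrument and stranded mRNA libraries, and the methods a NovaSeq instrument and total RNA libraries. All values of each library were whole multiples of one step within 0.001 reads, which returned the reads.

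Of 12946 genes 1025 carry an NM-R identifier alone and 11921 a symbol, and 10332 symbols were placed once in the mm9 GENCODE M1 annotation, which gave the positions. Levels were taken as log2(normalized count + 1) with no filter and fitted in limma 3.58.1 (R 4.3.3) with a trended variance, 3 against 3, 2-sided, with Benjamini-Hochberg adjustment over all genes. Folds are ratios of group means, and a group at 3 reads or fewer in every spleen was set to 3 reads, which is 3.26 normalized counts for mice and 4.24 for lsNM-Rs. On simulated data with 10903 genes the fit called 91% of genes changed 2-fold, all genes lowered 4-fold and 0.14% of unchanged genes. The simulation changed only 100 genes in each direction and gave both groups the same dispersion. In the spleens 75.9% of genes were called, and the SD was larger among lsNM-Rs for 65.3% of abundant genes. These rates therefore check that the fit ran properly and do not carry over to the spleens. The alternatives, among them edgeR 4.0.16 and DESeq2 1.42.0 on the recovered reads, are described in the closing section.

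The members and lists were chosen with earlier results of these data known. Genes are named as the 10 highest and 10 lowest differences, the first 2, the highest and the lowest of each list, the most variable and the most alike genes and the most abundant genes at the floor of the other group. Other list members were added as examples after their values were seen. The names Hla-Dma, Hla-Doa and Hla-Dob stand for the listed mouse genes H2-DMa, H2-Oa and H2-Ob, matched after the table was seen. A list of sex-linked transcripts had no member in the table. Symbols are homologue names, so members of multigene families are uncertain. Some genes that the rule names are not reported here.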

Additional observations from a re-analysis of the deposited data

How the results depend on the processing

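No difference called in the main fit was called in the opposite direction under any of the alternatives. These were pseudocounts of 0.5 and 5, a mean of at least 10 normalized counts and 3 other scalings (upper quartile, TMM and size factors of the 6 spleens). They also included all 9 spleens in the fit, eBayes without a trend, edgeR, DESeq2 and a repeated row counted once. Leaving out genes at the floor (added after seeing the data) and leaving out single spleens completed the alternatives. Differences not called in the main fit did change sign under some of the alternatives. Among them were Egr1 (from -0.35 to 0.40 without lsNM-R 4), and Alb (from 0.45 to -0.50) and Snai1 (from 0.42 to -0.49) without lsNM-R 5. Egr1, called lower without lsNM-R 5 (-1.17), thus had opposite signs in 2 alternatives, though it was not called without lsNM-R 4. Some list medians changed sign too, among them that of the liver list (from 0.45 to -0.50 without lsNM-R 5). Between 90.96% and 100% of the calls were kept, counted only over the genes still tested in each alternative. The fewest of the 9821 calls, 8442, were kept with the genes at the floor left out, where 11274 genes were tested. The count of higher genes lay between 4515 and 4835 and that of lower genes between 4462 and 4821 when a spleen was left out. Scaling to the same upper quartile gave 5252 higher and 4498 lower genes, edgeR 4994 and 4772, and DESeq2 4865 and 4650. Of the counts over all genes, the 1 that moved by over 1.5 times was the count of genes at least 4-fold higher, which was 1214 of 11274 genes with the genes at the floor left out. Among 170 named genes 9 lost their call and 16 gained one under some alternative, and 640 of 680 alternative list medians and 1310 of 1360 alternative list counts kept their value within the spread or within 1.5 times. The cause was not tested. No paired analysis was possible because the replicate numbers name animals of different species and the groups share only 1 number. With 3 spleens per group and 3 reads as the floor, differences of low genes were limited by counting.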
